A study of Mus musculus with 12 samples.

Results

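The MAP kinase phosphatases described here are 7 dual-specificity phosphatase genes, Dusp1, Dusp2, Dusp4, Dusp5, Dusp6, Dusp10 and Dusp16, taken by symbol from the 38215 genes of the count table. They were followed in 12 RNAseq libraries from RAW264.7 cells, a virus-transformed mouse macrophage line of BALB/c origin. All cells were transfected by nucleofection, with either a nontargeting control siRNA or siRNA against SF3a1, and 24 hours later were left untreated or exposed to LPS at 20 ng/ml for 4 hours. SF3a1 is a subunit of the U2 snRNP, the part of the spliceosome that binds the branch point, and LPS is the bacterial cell wall component that TLR4 senses. Both siRNAs were thus studied in the presence and in the absence of LPS, and each of these 4 groups had 3 biological replicates. The knockdown used Dharmacon siRNA in 1 cell line, and loss of SF3a1 and other effects of the siRNA cannot be told apart.

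MAP kinase phosphatases remove phosphate from both the threonine and the tyrosine of the activation loop of MAP kinases and so switch them off. Many are immediate or delayed early genes whose transcription is driven by the same kinases, which makes them negative feedback regulators; in macrophages they limit the output of cytokines after TLR stimulation. Dusp1 (MKP1), Dusp2 (PAC1), Dusp4 (MKP2) and Dusp5 are the inducible nuclear enzymes, of which Dusp5 acts on ERK alone. Dusp6 (MKP3) is the cytoplasmic phosphatase of ERK. Dusp10 (MKP5) and Dusp16 (MKP7) act on JNK and p38.

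The libraries held between 12746019 and 41091887 reads counted on genes. Levels are given as CPM, counts scaled to the library's reads on genes after TMM adjustment, with the replicates named in order, and differences as log2 fold changes from edgeR's quasi-likelihood test over all 12 libraries. The threshold for a call was a p of 0.1, adjusted by the Benjamini-Hochberg procedure over the 14983 genes tested; the study used the same false discovery rate. Sf3a1 itself stood at 191 ± 22.2 CPM (SD, n = 3) with control siRNA and at 28.9 ± 2.78 CPM with SF3a1 siRNA in the absence of LPS, and at 167 ± 23.9 and 34.0 ± 9.72 CPM in its presence. The knockdown was therefore present in all 6 libraries labelled with SF3a1 siRNA, whose highest value was 45.0 CPM against a lowest control value of 150 CPM. Macrophage markers were abundant, led by Lyz2 at a mean of 5430 to 7527 CPM per group; of the 10 markers only Mrc1 averaged below 1 CPM. After LPS, Tnf went from 35.4 ± 5.61 to 1449 ± 675 CPM with control siRNA, Il1b from 0.168 ± 0.083 to 3083 ± 978 CPM and Il10 from 0.201 ± 0.130 to 7.79 ± 5.998 CPM. With SF3a1 siRNA and LPS the 3 cytokine genes stood at 904 ± 484, 973 ± 353 and 5.49 ± 2.59 CPM, of which Il1b was called lower than the LPS-treated controls (log2 -1.66, adjusted p = 0.0024). The summed CPM of 4 markers each for T cells, B cells, fibroblasts, epithelial cells and neutrophils did not exceed 1.33 CPM in any library.

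Replicate 1 stood apart from the other libraries. It was sequenced in 2 runs in every group while replicates 2 and 3 had 1 run each, and it was the deepest library of each group. It also held the highest CPM in 18 of the 28 combinations of a phosphatase gene and a group. For Dusp1, replicate 1 was the highest and replicate 2 the lowest library in all 4 groups, by factors of 1.72 to 5.07. For Dusp6 the order was turned, with replicate 2 the highest and replicate 1 the lowest in all 4 groups, by factors of 1.77 to 2.95. Values with replicates 2 and 3 alone are given below where a call changed. In bulk RNA, a change in the share of responding cells and a change in the RNA per cell cannot be told apart.

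In the mouse genome (GRCm38, GENCODE vM21) Dusp2 lies at chr2:127336159-127338376, Dusp4 at chr8:34807297-34819894 and Dusp6 at chr10:99263231-99267489, all on the plus strand and with no other annotated gene across them. Dusp5 (chr19:53529109-53542431, plus strand) and Dusp16 (chr6:134715468-134792625, minus strand) each have an annotated antisense gene. Dusp10 (chr1:184013302-184075636, plus strand) overlaps a gene on the other strand, and the annotated span of Dusp1 (chr17:26505590-26562128, minus strand) runs across Ergic1. Whether strand was used in counting is not given in the sources used here, so reads from Dusp1, Dusp5, Dusp10 and Dusp16 and from these partners may not be told apart. All 7 genes have an entry in the count table with at least 13 reads in every library. Promoter sequences from RefSeq (GRCm38.p6, the build to which the reads were mapped) were at hand for 6 of the 7, the exception being Dusp4. The promoters of the 5 LPS-induced genes among them are shown because LPS raised all 5 with control siRNA, as described below. Each runs from 250 bases before the RefSeq start toward the gene and stops at the start or at the first base of an exon annotated in GENCODE vM21, and capitals mark every match, on either strand, to one of 9 motifs. The motifs were TGACGTCA (the cAMP response element), its part TGACG, an AP1 element read as TGANTCA, the E box CACGTG, the GC box GGGCGG, the ETS element CCGGAAGT, the TATA element TATAAA, the κB motif and the CArG box of serum response factor.
Dusp5 (chr19:53528895-53529108, plus strand): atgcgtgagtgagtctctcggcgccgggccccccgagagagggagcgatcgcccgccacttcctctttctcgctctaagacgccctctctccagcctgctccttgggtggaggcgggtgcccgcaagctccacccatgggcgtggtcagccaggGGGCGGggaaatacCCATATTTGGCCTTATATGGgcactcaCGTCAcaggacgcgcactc
Dusp2 (chr2:127335909-127336158, plus strand): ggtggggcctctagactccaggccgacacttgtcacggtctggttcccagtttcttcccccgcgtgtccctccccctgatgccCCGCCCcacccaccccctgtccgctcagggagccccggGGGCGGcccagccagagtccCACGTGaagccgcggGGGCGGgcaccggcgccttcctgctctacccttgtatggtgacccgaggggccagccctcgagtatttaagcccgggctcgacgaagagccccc
Dusp1 (chr17:26508520-26508722, minus strand): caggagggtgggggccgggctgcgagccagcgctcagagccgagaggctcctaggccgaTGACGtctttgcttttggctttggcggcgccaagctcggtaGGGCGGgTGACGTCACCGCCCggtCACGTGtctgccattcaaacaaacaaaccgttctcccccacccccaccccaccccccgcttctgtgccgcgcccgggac
Dusp16 (chr6:134792629-134792878, minus strand): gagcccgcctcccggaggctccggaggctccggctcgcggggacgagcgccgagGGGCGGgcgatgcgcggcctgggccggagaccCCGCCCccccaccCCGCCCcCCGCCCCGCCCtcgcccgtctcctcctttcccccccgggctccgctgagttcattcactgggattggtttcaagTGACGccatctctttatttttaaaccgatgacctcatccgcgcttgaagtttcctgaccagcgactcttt
Dusp6 (chr10:99262981-99263230, plus strand): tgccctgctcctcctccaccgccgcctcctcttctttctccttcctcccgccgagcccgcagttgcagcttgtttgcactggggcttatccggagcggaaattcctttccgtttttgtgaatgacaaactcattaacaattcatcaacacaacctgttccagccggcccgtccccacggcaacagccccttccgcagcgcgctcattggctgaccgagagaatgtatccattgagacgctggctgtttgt

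Dusp5 held a pair of CArG boxes side by side, at positions -82 to -73 and -72 to -63 before the RefSeq start. A CArG box was present in the 250 bases before the start of 1.47% of the 32851 promoters in the table and in none of the other 5 phosphatase genes. Dusp1 held the full TGACGTCA at -143 to -136, flanked by GC boxes on both sides; 1.55% of all promoters have that element. Its part TGACG, which overlaps the full element, was found in Dusp1, Dusp5 and Dusp16 and in 17.8% of all promoters. CACGTG was found in Dusp1 and Dusp2 and in 6.02% of all promoters, and GGGCGG in 5 of the 6 genes, all but Dusp6, and in 32.7%. No match to TGANTCA (6.75% of all promoters), CCGGAAGT (2.88%), TATAAA (12.4%) or the κB motif (5% of all promoters) lay in these windows. Dusp6, with GC content 56.4%, held none of the 9 motifs as read here. The κB motif was read only as GGGRNYYYCC (R is A or G, Y is C or T, N is any base), and looser forms were not searched. A match is a description of the letters and was not tested for binding.

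Resting cells expressed the 7 genes at different levels. Compared per kilobase of exon, Dusp4 and Dusp2 were the most abundant with control siRNA and no LPS, at 7.53 ± 2.10 and 5.64 ± 0.309 CPM per kb (SD, n = 3), and their libraries overlapped. Dusp1 at 3.48 ± 0.920 and Dusp5 at 2.49 ± 0.625 CPM per kb followed and overlapped as well. Dusp16 (1.82 ± 0.239 CPM per kb), Dusp6 (1.04 ± 0.398 CPM per kb) and Dusp10 (0.517 ± 0.183 CPM per kb) were the lowest, in that order, and none of these 3 overlapped its neighbour. After LPS the order was headed by Dusp2 and Dusp5, at 75.8 ± 9.22 and 58.7 ± 22.2 CPM per kb, whose libraries overlapped. Dusp10 stayed the lowest member in all 4 groups and did not overlap the next gene in any of them. The exon lengths are those of GENCODE vM21, whereas the reads were counted on an earlier Ensembl annotation. The models differed for Dusp1 (10 exon bins in the counts, 17 in vM21), Dusp6 (3 and 8) and Dusp16 (15 and 21), so the levels per kb of these 3 and their places in the order are uncertain.

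With control siRNA, LPS raised 6 of the 7 phosphatase genes, all but Dusp10. In each of the 6, every LPS library lay above every library without LPS. Over all genes tested 13.8% were called higher and 17.2% had LPS libraries wholly above the others, and the median log2 fold change was 2.38 for the 7 genes against -0.02 for all genes. Dusp5, the nuclear ERK phosphatase, rose most. It went from 7.96, 5.27 and 5.28 CPM to 207, 128 and 101 CPM, a 23.4-fold increase (log2 4.55, SE 0.46, adjusted p = 1.1e-05). The lowest LPS library of Dusp5 was well above the highest library without LPS.

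The 3 Dusp2 libraries without LPS gave 11.5, 11.8 and 10.6 CPM and those with LPS 166, 131 and 158 CPM, an increase of 13.4-fold (log2 3.75, SE 0.17, adjusted p = 2.0e-08). Dusp16, which acts on JNK and p38, went from 16.0, 14.4 and 12.3 CPM to 76.5, 78.0 and 67.5 CPM (log2 2.38, SE 0.18, adjusted p = 8.1e-07). Within these groups the highest library of Dusp2 was at most 1.27 times the lowest and that of Dusp16 at most 1.30 times, and the groups were far apart. Dusp4 rose 3.92-fold, from 24.9, 22.8 and 14.1 CPM to 85.9, 99.0 and 57.9 CPM (log2 1.97, SE 0.30, adjusted p = 0.00035).

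The remaining responders varied more between replicates. Dusp6 moved from 2.27, 4.65 and 2.81 CPM to 10.7, 31.6 and 11.6 CPM (log2 2.47, SE 0.45, adjusted p = 0.0013), and its replicate 2 was the high library in both groups. Without that LPS library the log2 change of Dusp6 was 1.79 (adjusted p = 0.0039). Dusp1, a feedback regulator of p38 in macrophages, rose from 14.5, 8.40 and 11.7 CPM to 111, 21.9 and 44.4 CPM (log2 2.36, SE 0.67, adjusted p = 0.019). The Dusp1 groups did not overlap, but the LPS libraries were spread over a factor of 5.07, and without LPS replicate 1 the log2 change was 1.52 (adjusted p = 0.097). Dusp10 gave 1.42, 2.19 and 1.11 CPM without LPS and 1.61, 1.75 and 1.96 CPM with it. These overlapped, and the log2 difference was 0.17, with a 95% interval of -0.53 to 0.88 (adjusted p = 0.76).

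**Figure D1:**
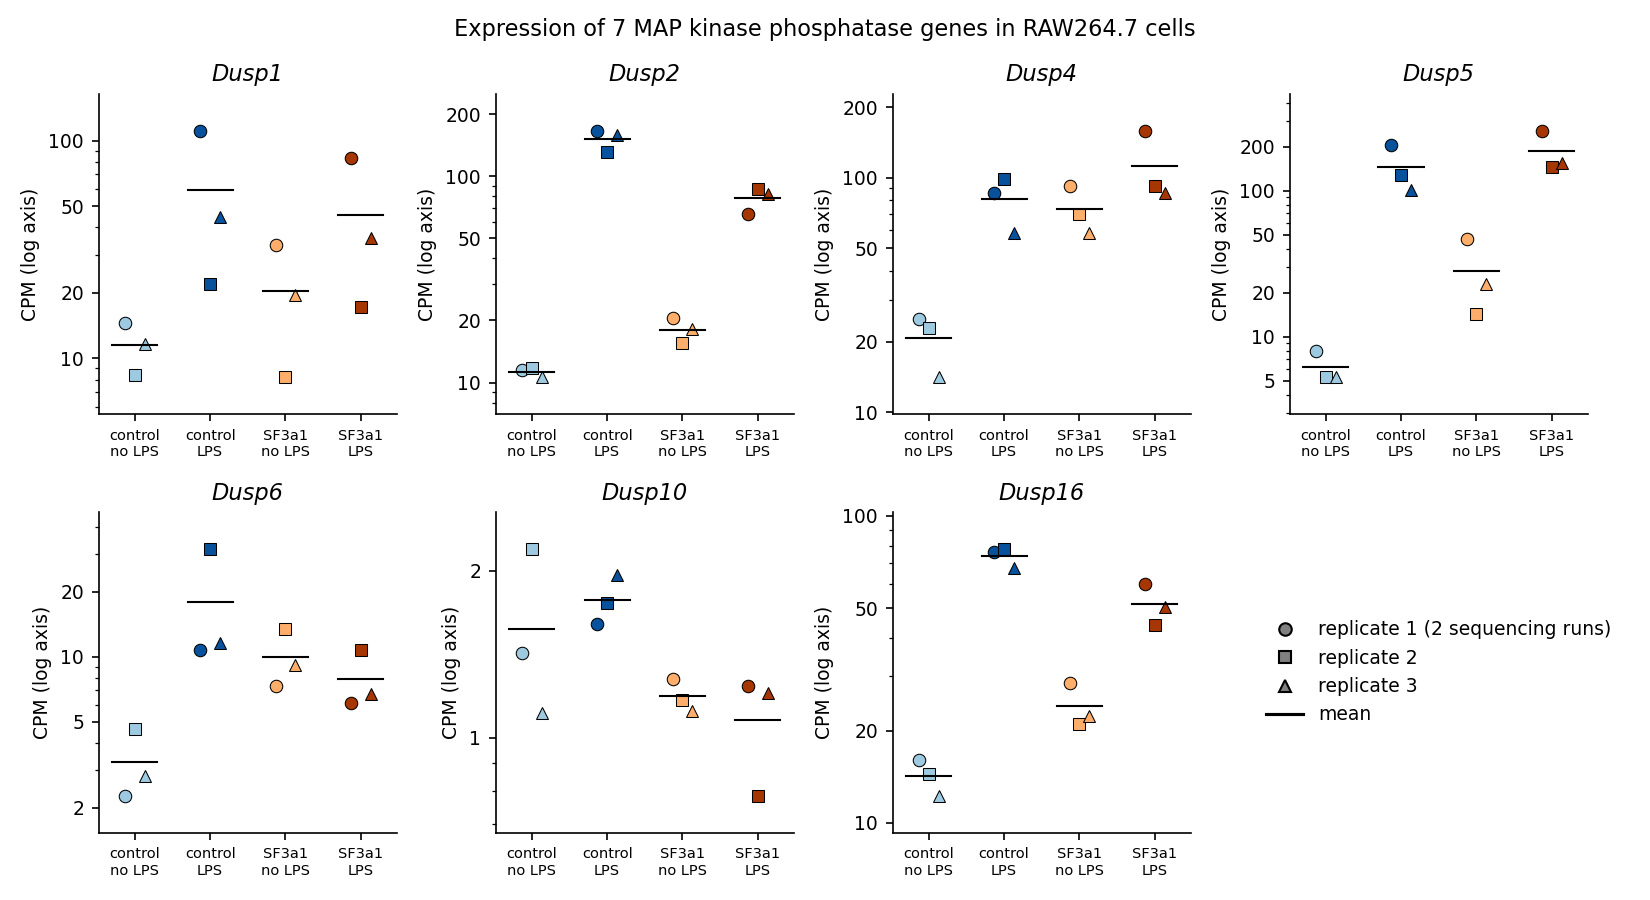
CPM (TMM scaled, log axis) of the 7 phosphatase genes in the 12 libraries, by siRNA and LPS; each point is a library, its shape the replicate number, and the bar the group mean. Dusp2 and Dusp16 form 4 separate groups in the same order, Dusp1 spreads by replicate number within every group, and Dusp10 stays between 0.786 and 2.19 CPM throughout.

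SF3a1 siRNA by itself, without LPS and against the same control libraries, raised 5 of the 7 genes: Dusp5, Dusp4, Dusp6, Dusp16 and Dusp2. In all 5 the libraries with SF3a1 siRNA lay wholly above those with control siRNA. Of all genes tested, 13.7% were called higher, 20.1% lower and 20.2% had SF3a1 siRNA libraries wholly above the controls; the median log2 difference was 0.82 for the 7 genes and -0.02 for all genes. Dusp5 reached 46.6, 14.3 and 23.1 CPM, 4.52 times its level with control siRNA (log2 2.18, SE 0.42, adjusted p = 0.0023). Replicate 1 was the highest of these, and without it the log2 difference was 1.58 (adjusted p = 0.0081). Dusp4 reached 91.8, 70.3 and 58.2 CPM (log2 1.83, SE 0.30, adjusted p = 0.00083), which overlapped the range of Dusp4 in LPS-treated control cells.

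Dusp6 reached 7.29, 13.4 and 9.15 CPM (log2 1.63, SE 0.45, adjusted p = 0.017). The increases of Dusp16 and Dusp2 were smaller. Dusp16 stood at 28.7, 21.1 and 22.3 CPM (log2 0.76, SE 0.17, adjusted p = 0.0059) and Dusp2 at 20.5, 15.6 and 18.2 CPM (log2 0.68, SE 0.16, adjusted p = 0.0074). For both, the SF3a1 siRNA libraries lay between the controls without LPS and those with LPS, and touched neither.

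Dusp1 gave 33.3, 8.19 and 19.6 CPM with SF3a1 siRNA, against 14.5, 8.40 and 11.7 CPM with control siRNA. The ranges overlapped and the difference was not called (log2 0.82, adjusted p = 0.40). With the replicate number as a block Dusp1 was called higher (log2 0.62, adjusted p = 0.059); over the 20 alternative settings its adjusted p ran from 0.024 to 0.83. Dusp10 stood at 1.28, 1.17 and 1.12 CPM (log2 -0.39, 95% interval -1.11 to 0.32). The share of reads that fell outside annotated genes was 27.2, 21.56 and 20.83% with SF3a1 siRNA and 18.21, 19.63 and 17.85% with control siRNA in these 6 libraries, and its part in the differences was not tested.

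In the presence of LPS, SF3a1 siRNA lowered 3 of the 7 genes, Dusp6, Dusp2 and Dusp16, and raised none, where 20.4% of all genes were called lower and 18.4% higher. The median log2 difference was -0.52 for the 7 genes and -0.04 for all genes. Dusp2 fell to 65.6, 86.9 and 82.0 CPM, 0.514 of its LPS level in control cells (log2 -0.96, SE 0.16, adjusted p = 0.00065). The 3 libraries were all below the lowest control library, at 131 CPM. Dusp16 stood at 59.95, 44.1 and 50.5 CPM (log2 -0.52, SE 0.17, adjusted p = 0.032), likewise below all controls, and the call was lost without replicate 2 of SF3a1 siRNA with LPS (log2 -0.42, adjusted p = 0.11, the highest of the 20 alternatives, whose lowest was 0.0045).

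Dusp6 was the least certain of the 3. It gave 6.09, 10.8 and 6.69 CPM with SF3a1 siRNA and LPS (log2 -1.19, SE 0.43, adjusted p = 0.053), and its highest library, 10.76 CPM, just passed the lowest control library, 10.71 CPM. The Dusp6 call was lost without replicate 2 of the LPS-treated controls (log2 -0.51, adjusted p = 0.35) and without replicate 1 or 3 of SF3a1 siRNA with LPS (adjusted p = 0.15 for both), in a range over the 20 alternatives of 0.00055 to 0.35. The other members were not called. Dusp5 gave 258, 144 and 156 CPM (log2 0.36, 95% interval -0.49 to 1.20) and Dusp4 159, 92.2 and 86.0 CPM (log2 0.48, 95% interval -0.15 to 1.10). Both overlapped the LPS-treated controls. With the replicate block Dusp4 was called higher (log2 0.46, adjusted p = 0.032, range over the alternatives 0.032 to 0.76).

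Dusp1 in these libraries was 83.6, 17.2 and 35.9 CPM, each below the control library of the same replicate number, and the ranges overlapped widely (log2 -0.38, adjusted p = 0.70). The Dusp1 value turned positive, and was not called, without replicate 1 of the LPS-treated controls (log2 0.46) or without replicate 2 of SF3a1 siRNA with LPS (log2 0.01). Dusp10 gave 1.24, 0.786 and 1.20 CPM, all below the LPS-treated controls, and was not called (log2 -0.70, 95% interval -1.42 to 0.02, adjusted p = 0.13). Groups that did not overlap in this direction were found for Dusp2, Dusp10 and Dusp16, and for 21.1% of all genes tested.

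**Figure D2:**
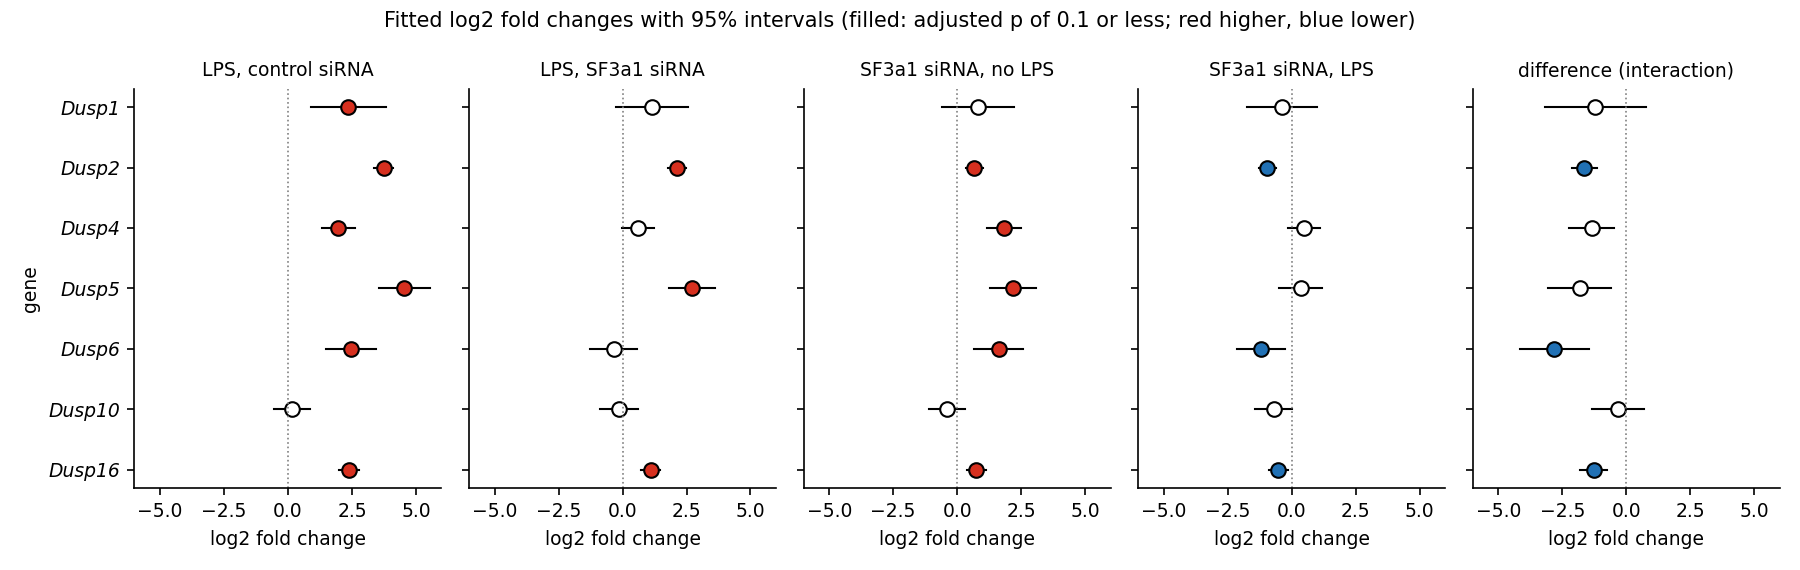
Fitted log2 fold change of each gene (points) with its 95% interval (lines) in the 5 comparisons; filled points have an adjusted p of 0.1 or less, red for higher and blue for lower. All 7 points of the last panel, the difference between the SF3a1 siRNA effects with and without LPS, lie below 0.

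Within cells treated with SF3a1 siRNA, LPS raised 3 of the 7 genes. Dusp5 rose 6.62-fold (log2 2.73, SE 0.42, adjusted p = 0.0011), Dusp2 4.32-fold (log2 2.11, SE 0.16, adjusted p = 4.2e-06) and Dusp16 2.14-fold (log2 1.10, SE 0.17, adjusted p = 0.0012). All 3 had LPS libraries wholly above those without LPS, as did 13.3% of all genes, and 6.6% of all genes were called higher. For Dusp5 the log2 change was 3.32 without replicate 1 of SF3a1 siRNA without LPS. Dusp1 (log2 1.16, adjusted p = 0.38) and Dusp4 (log2 0.61, adjusted p = 0.28) were not called. The Dusp1 value was 0.37 without replicate 1 of SF3a1 siRNA with LPS and 1.73 without replicate 1 of SF3a1 siRNA without LPS, and neither was called (adjusted p = 0.81 and 0.27). With the replicate number as a block, where 11.3% of all genes were called higher, 5 genes were called, Dusp1 (log2 1.10, adjusted p = 0.0070, range over the alternatives 0.00057 to 0.81) and Dusp4 (log2 0.60, adjusted p = 0.022, range 0.022 to 0.67) being added. The same 2 were also called with no filter on low counts (adjusted p = 0.00057 and 0.053), where 3.8% of all genes were called higher. Dusp6 was -0.35 (95% interval -1.28 to 0.58) and Dusp10 -0.13 (95% interval -0.87 to 0.60) on the log2 scale.

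The interaction term asks whether the LPS response differed between the siRNAs, which is the same as asking whether the SF3a1 siRNA effect differed with LPS. It was negative for all 7 genes and passed the test, as lower, for 3 of them, where 1.94% of all genes were called lower and 1.54% higher; the median was -1.36 for the 7 genes and 0.04 for all genes. Dusp2 had the smallest adjusted p (log2 -1.64, SE 0.22, adjusted p = 0.0037). Its LPS response was 13.4-fold with control siRNA and 4.32-fold with SF3a1 siRNA. Dusp16 went from 5.19-fold to 2.14-fold (log2 -1.28, SE 0.24, adjusted p = 0.019).

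Dusp6 had the widest difference. With control siRNA its level went up with LPS in all 3 replicate pairs, by 2.01 to 2.74 on the log2 scale. With SF3a1 siRNA it was lower with LPS in all 3 pairs, by -0.45 to -0.26. That fitted decrease was not called (log2 -0.35, adjusted p = 0.78 by edgeR's quasi-likelihood test), and the libraries overlapped. The interaction was log2 -2.82 (SE 0.62, adjusted p = 0.037). Without replicate 2 of the LPS-treated controls the Dusp6 interaction was -2.14 (adjusted p = 0.063), and without replicate 2 of SF3a1 siRNA without LPS it was -2.54 and missed the threshold (adjusted p = 0.10); over the 19 alternatives the adjusted p ran from 1.3e-07 to 0.10.

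Dusp5 (log2 -1.82, 95% interval -3.05 to -0.59, adjusted p = 0.14) and Dusp4 (log2 -1.36, 95% interval -2.25 to -0.46, adjusted p = 0.13) did not pass. Dusp5 started from a higher level with SF3a1 siRNA and ended at one that overlapped the controls, and its fitted fold of LPS over no LPS was 23.4 with control and 6.62 with SF3a1 siRNA. With the replicate block, 6 of the 7 genes had a called negative interaction, all but Dusp10, and 5.18% of all genes were called lower. The added genes were Dusp5 (log2 -1.73, adjusted p = 0.0023, range over the alternatives 6.1e-06 to 0.28), Dusp4 (log2 -1.39, adjusted p = 0.0031, range 0.0012 to 0.26) and Dusp1 (log2 -0.99, adjusted p = 0.099, range 0.058 to 0.93). With replicates 2 and 3 alone, 5 genes were called, Dusp2, Dusp4, Dusp5, Dusp6 and Dusp16, and 3.09% of all genes tested were called lower. Leaving out replicate 1 of SF3a1 siRNA with LPS also called Dusp4 (log2 -1.69, adjusted p = 0.048) and Dusp5 (log2 -2.13, adjusted p = 0.097), and leaving out replicate 2 of SF3a1 siRNA without LPS called Dusp5 (log2 -2.14, adjusted p = 0.086). Leaving out each library in turn gave log2 values of -2.14 to -1.22 for Dusp5 (adjusted p from 0.086 to 0.28). Those for Dusp4 were -1.69 to -1.16 (adjusted p from 0.048 to 0.26). Dusp10 was -0.30 (95% interval -1.32 to 0.71). The same-numbered libraries gave a lower LPS ratio with SF3a1 siRNA than with control siRNA for each of the 7 genes and each of the 3 numbers.

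**Figure D3:**
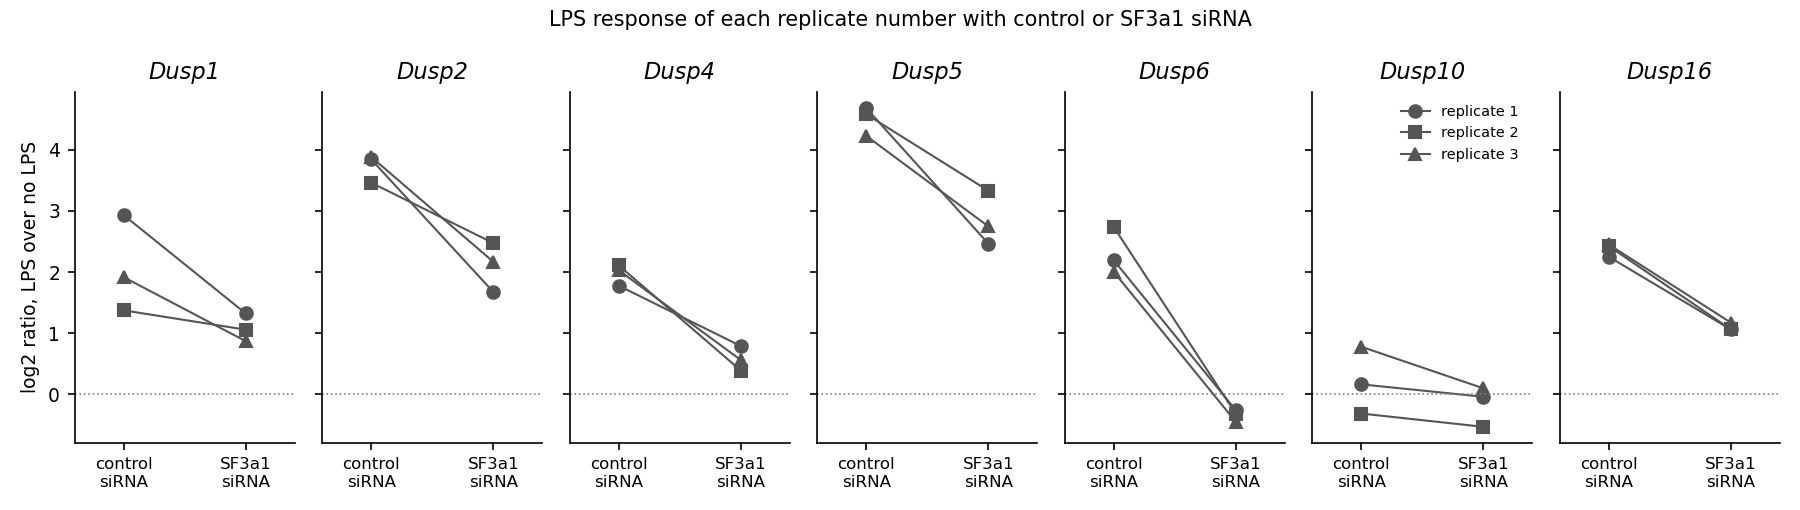
Log2 ratio of LPS to no LPS for each replicate number (lines, with a point shape per replicate) with control siRNA (left of each panel) and SF3a1 siRNA (right). Every line goes down; those of Dusp16 lie almost on each other, and those of Dusp6 cross from above 0 to below it.

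Across the 12 libraries, Dusp2 and Dusp16 had the most similar profiles of the 7 genes, with a Pearson r of 0.97 between their log2 CPM, followed by Dusp5 and Dusp16 (0.95) and Dusp2 and Dusp5 (0.91). These are descriptions over 12 points that share the 4 groups and their depths. Dusp1 and Dusp6 had an r of 0.21, and their libraries differ in replicate order as described above. Dusp10 was between -0.20 and 0.13 with each of the others. Among 10533 other genes that averaged 5 CPM or more, the profiles most like Dusp16 were those of Tnc (r = 0.995), which encodes the matrix protein tenascin C, Phlda1 (0.995) and Mafk (0.993), a small Maf transcription factor. Dusp2 was closest to Timp1 (0.992), a metalloproteinase inhibitor, Cish (0.991), a feedback inhibitor of cytokine signaling, and Sp140 (0.991). Dusp5 was closest to Vgf (0.987), the adenosine receptor gene Adora2b (0.986) and Ier3 (0.985). The nearest genes to Dusp4 were Susd6 (0.970), Fosl1 (0.970), which encodes the AP1 subunit FRA1, and Nfe2l1 (0.967). Those to Dusp1 were Mocs1 (0.963), Pld3 (0.932) and Eloa (0.920). Dusp6 (Id1, 0.881; Gm13549, 0.875; Ikzf1, 0.864) and Dusp10 (Wdr41, 0.881; Atad2b, 0.877; Nat10, 0.870) had less close neighbours.

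Since SF3a1 is a splicing factor, the use of each exon bin within the phosphatase genes was examined in 11 libraries; the exon bins of the third LPS-treated control library were not analysed here. Of 50 bins in the 7 genes 42 passed the count filter. None was called, in any of LPS with control siRNA, SF3a1 siRNA without LPS or SF3a1 siRNA with LPS, by edgeR's diffSpliceDGE or by limma's diffSplice at an adjusted p of 0.1. The background was also low, with 0.0801, 0.626 and 0.492% of 153624 bins called in the 3 comparisons. At an unadjusted p under 0.05 there were 0, 2 and 1 bins among the 42, all of them in Dusp2. 

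The lowest p belonged to the second intron of Dusp2, which an annotated transcript (Dusp2-202) keeps and which is described here after its values were seen. The intron is 350 bases long (chr2:127336899-127337248, GRCm38, plus strand). Its last 60 bases are shown because they hold the splice site region where the U2 snRNP and its partners act; capitals mark the 20 bases before the terminal AG together with that AG.
Dusp2 intron 2, 3′ end (chr2:127337189-127337248): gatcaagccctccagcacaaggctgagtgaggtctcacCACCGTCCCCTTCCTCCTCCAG
Of those 20 bases, where the polypyrimidine tract of an intron lies, 90% were C or T, against 52.3% of the whole intron. Other introns were not measured for comparison. The intron took 1.25, 1.60 and 1.68% of the Dusp2 bin counts with control siRNA and no LPS, and 2.80, 4.26 and 4.64% with SF3a1 siRNA and no LPS. With LPS it took 1.49 and 1.84% with control siRNA and 4.16, 3.34 and 3.28% with SF3a1 siRNA. All 6 SF3a1 siRNA libraries were above all 5 control libraries. How many of all bins lay apart in this way was not counted. Within single comparisons of the siRNAs, other uncalled bins of the phosphatase genes did not overlap either. Examples are Dusp16 bin 008, lower with SF3a1 siRNA without LPS, and Dusp1 bin 007, higher with SF3a1 siRNA and LPS. The counts behind these shares were small without LPS, 5 to 8 reads in the controls and 13 to 21 with SF3a1 siRNA, and 37 to 123 in the libraries with LPS. Relative to the gene, the log2 change was 1.32 without LPS (unadjusted p = 0.014, adjusted p = 0.80) and 1.11 with LPS (unadjusted p = 0.018, adjusted p = 0.84), so neither passed edgeR's diffSpliceDGE; over the 14 alternatives the adjusted p ran from 0.39 to 1 and from 0.33 to 1. The LPS change with control siRNA was 0.12.

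**Figure D4:**
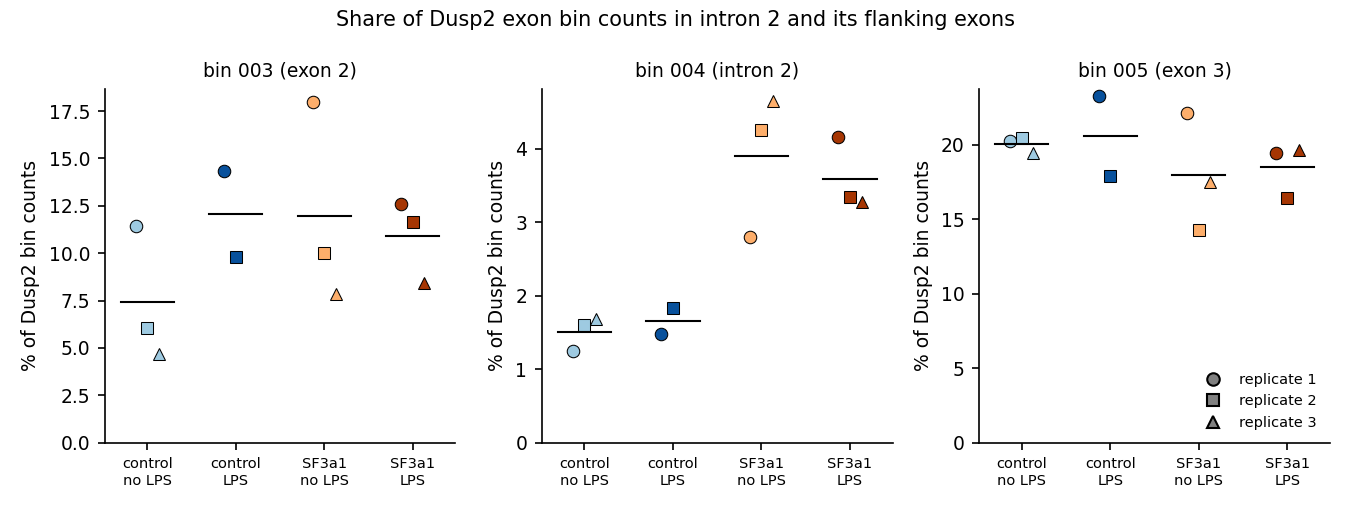
Percent of all Dusp2 exon bin counts that fell in intron 2 (middle) and in the exons before and after it (left and right), by library; point shapes are replicates and bars group means. The intron took 1.25 to 1.84% in the control siRNA libraries and 2.80 to 4.64% with SF3a1 siRNA, a difference that did not pass the test over all bins, while the exons overlapped between the siRNAs.

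Other genes of the MAP kinase cascades were counted from lists of whole families. Genes named here beyond the 3 largest called changes of a list in a comparison were chosen after their values were seen. Of the same class of phosphatases, 3 members lie outside the set. Dusp9 (MKP4), an ERK phosphatase, was at 0.894, 1.56 and 1.23 CPM with control siRNA and 7.55, 7.30 and 12.6 CPM with SF3a1 siRNA, higher both without LPS (log2 2.91, adjusted p = 0.00050) and with it (log2 3.94, adjusted p = 0.00011). LPS with control siRNA called Dusp8 higher (log2 2.28, adjusted p = 0.039), as did SF3a1 siRNA without LPS (log2 2.20, adjusted p = 0.048), but Dusp8 averaged under 1 CPM and is named only after its values were seen. Without replicate 1 of the untreated controls the log2 values of Dusp8 were 4.38 and 4.37. Without replicate 2 of these controls they were 1.90 and 1.90, and neither was called. Dusp7 was called in no comparison.

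After LPS with control siRNA, 13.8% of all genes tested were called higher and 18.3% lower. Among genes that ERK induces or that feed back on ERK, 9 of 18 tested were higher and 1 lower. The most changed were Phlda1 (log2 4.92), Myc (log2 3.97) and Ier3 (13.9-fold). SF3a1 siRNA without LPS raised 11 of the 18 and lowered none, where 13.7% of all genes were called higher and 20.1% lower. Fosl1 went from 8.30, 10.5 and 7.07 CPM to 66.5, 58.5 and 58.8 CPM (log2 2.83, adjusted p = 5.6e-05) and Myc rose by 2.71 on the log2 scale. Spry1, a Sprouty inhibitor of receptor signaling, had the largest fitted difference (log2 3.77, adjusted p = 0.017) at levels of 1.34 to 3.61 CPM with SF3a1 siRNA and at most 0.468 CPM without it. Without replicate 3 of the untreated controls the log2 difference of Spry1 was 5.16 (adjusted p = 0.016). With LPS, SF3a1 siRNA raised 7 and lowered 3, where 18.4% of all genes were called higher and 20.4% lower. Among those lowered was Egr1, the zinc finger immediate early factor, which went from 67.1, 108 and 90.0 CPM to 19.3, 7.80 and 9.48 CPM (log2 -2.84, adjusted p = 0.00049), while Fos rose (log2 1.59, adjusted p = 7.0e-05). Spry1 was called higher there too (log2 4.31, adjusted p = 0.022), on 100, 2 and 6 reads against 3, 0 and 1 in the LPS-treated controls, and the call was lost without replicate 1 of SF3a1 siRNA with LPS (log2 1.81, adjusted p = 0.28). The medians of the 18 genes were 0.57, 1.09 and 0.56 in the 3 comparisons, where those of all genes were -0.02, -0.02 and -0.04. With SF3a1 siRNA, LPS raised 5 of the 18 and lowered none, where 6.6% of all genes were called higher and 4.06% lower. Ier3 (log2 2.61), Phlda1 (log2 2.46) and Myc (log2 1.67) were the most changed, and the median of the 18 genes was -0.21 against 0.01 for all genes. Without replicate 1 of SF3a1 siRNA without LPS the log2 change of Ier3 was 3.27. In the interaction, 4 of the 18 were called lower, Egr1, Phlda1, Myc and Fosl1, and none higher. Of all genes, 1.94% were called lower and 1.54% higher.

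After LPS with control siRNA, 13.8% of all genes tested were called higher and 18.3% lower. Of 8 MAP kinase genes 2 were lower, among them Mapk9 (log2 -0.37), which encodes JNK2, and none was higher. Among 14 upstream MAP3 kinase genes, LPS raised 2 and lowered 4, among them Map3k6 (log2 -1.66) and Map3k5 (log2 -1.10), which encodes the stress kinase ASK1. Map3k8, which encodes TPL2, the kinase that couples TLR4 to ERK, went from 6.08, 4.16 and 5.41 CPM to 25.3, 28.6 and 26.7 CPM (log2 2.36, adjusted p = 5.5e-06). Of 7 MAP kinase kinases LPS raised 2, Map2k1 (MEK1, log2 1.48) and Map2k4 (log2 0.43), and lowered 1, Map2k6 (log2 -2.27), which averaged under 1 CPM. Without replicate 1 of the LPS-treated controls Map2k6 was at -2.86. In LPS-treated cells SF3a1 siRNA lowered Map3k8 and Map2k1, Map3k8 to 11.2, 13.2 and 10.2 CPM (log2 -1.22, adjusted p = 0.00095) and Map2k1 from 506, 377 and 413 CPM to 197, 134 and 145 CPM (log2 -1.45, adjusted p = 8.3e-05). Neither had a called interaction (Map3k8 -1.04, Map2k1 -0.76 on the log2 scale).

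Of all genes tested, SF3a1 siRNA called 13.7% higher and 20.1% lower without LPS, and 18.4% higher and 20.4% lower with LPS. Without LPS, SF3a1 siRNA lowered Map2k1 (log2 -0.69), Map2k2 and Map2k5 (log2 -1.04) and raised Map2k3 (log2 1.03), an activator of p38, and Map2k4. With LPS it raised 1 MAP kinase kinase, Map2k3 (log2 1.16), and lowered 3, among them Map2k5 (log2 -0.95). It raised 4 and lowered 3 of the MAP3 kinases without LPS, with Map3k6 (log2 -1.53), Map3k5 (log2 -1.26) and Map3k2 (log2 0.999) the most changed. With LPS it raised 5, among them Map3k14 (log2 1.34), the kinase NIK, and Map3k4 (log2 1.13), and lowered 4. Of 8 MAP kinases 1 was higher without LPS, Mapk6 (log2 0.68), and 5 with LPS, among them Mapk6 (log2 0.87) and Mapk3 (log2 0.48). Of 10 kinases downstream of MAP kinases, SF3a1 siRNA lowered 5 without LPS and 4 with LPS and raised none. The largest of these differences were those of Rps6ka5 (MSK1, log2 -1.24), Mknk1 (log2 -0.94) and Rps6ka1 (log2 -0.62) without LPS and of Mknk1 (log2 -1.21), Rps6ka1 (log2 -0.75) and Rps6ka4 (log2 -0.70) with LPS. LPS raised 1 of the 10 and lowered 2 with control siRNA, and raised 1 and lowered 1 with SF3a1 siRNA, where of all genes 13.8% and 18.3%, and then 6.6% and 4.06%, were called higher and lower. Rps6ka5 fell with both siRNAs (log2 -2.40 and -1.36), and Mknk2 with control siRNA (log2 -1.42). Mknk2 was at -2.12 without replicate 1 of the LPS-treated controls, and at -1.11, not called, without replicate 1 of the untreated controls. Mapkapk2, the p38 substrate kinase MK2, rose with LPS by 1.60 on the log2 scale with control siRNA and by 1.51 with SF3a1 siRNA. LPS with SF3a1 siRNA called 1 of 8 MAP kinases (Mapk14, p38 alpha, log2 0.58), 1 of 7 MAP kinase kinases (Map2k1, log2 0.72) and 1 of 14 MAP3 kinases (Map3k8, log2 1.32) higher, and 1 MAP3 kinase lower (Map3k4, log2 -0.69).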

How the data were processed

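Per the study's methods, polyA RNA from 12 RAW264.7 cultures (4 groups of 3 biological replicates) was sequenced on an Ion Proton after the Ion Total RNA-Seq kit. The authors kept reads of at least 30 bases, aligned them with GSNAP to mm10 and deposited raw counts of uniquely mapped reads per gene (htseq-count, Ensembl annotation) and per exon bin (DEXSeq's script). Replicate 1 of each group had 2 sequencing runs, replicates 2 and 3 had 1. Rows for reads outside genes, 17.75 to 27.2% of reads, were left out of library sizes.

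Counts were analysed with edgeR 4.0.16 and limma 3.58.1 in R 4.3.3: TMM scaling, filterByExpr (14983 of 38215 genes kept) and the quasi-likelihood test over all 12 libraries, with Benjamini-Hochberg adjustment and a threshold of 0.1. Exon bins were tested with diffSpliceDGE on 11 libraries (153624 bins in 10609 genes). DESeq2 1.42.0, other scalings and filters, a replicate block and leaving out each library were tried as alternatives, and the scripts were tested on simulated data. A pairing check gave correlations of deviations between 0.14 and 0.60 for the 18 library pairs with the same replicate number. Those of the 36 others lay between -0.52 and 0.35. The numbers, which come from the labels, were therefore taken to pair the samples. The tests behind the calls had no term for this pairing, which entered a test only where the replicate block is named. Standard errors and intervals (95%) are from the fit. Total counts ran from 12746019 to 41091887 per library.

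The 7 genes and the gene lists were chosen with earlier results of these data known. Of 97 listed symbols 95 were matched. All 7 genes are named in every comparison; from every other list, up to 3 called genes with the largest change and a mean of at least 1 CPM were named per comparison; others were named after their values were seen. The genes most like a member are the 3 with the highest Pearson r of log2 CPM (prior count 2) among tested genes of at least 5 CPM. Promoters were read from RefSeq (GRCm38.p6) and the Dusp2 intron from GENCODE vM21 transcripts. 1 gene of the MAP kinase list is not reported here by name.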

Additional observations from a re-analysis of the deposited data

Results flagged for a closer look

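The difference between the SF3a1 siRNA effects with and without LPS passed edgeR's interaction test for 10 of the genes named in the text or as controls. It was negative for Dusp2 (log2 -1.64, adjusted p = 0.0037), Dusp16 (log2 -1.28, adjusted p = 0.019) and Dusp6 (log2 -2.82, adjusted p = 0.037), each in all 3 replicate numbers. Among ERK-responsive genes it was negative for Myc (log2 -2.30, adjusted p = 0.0085), Phlda1 (log2 -2.46, adjusted p = 0.025), Fosl1 (log2 -1.90, adjusted p = 0.029) and Egr1 (log2 -2.47, adjusted p = 0.054). It was also negative for the cytokine gene Il1b (log2 -3.31, adjusted p = 0.041), which had under 1 CPM in every library without LPS. It was positive for the kinase gene Map3k6 (log2 1.96, adjusted p = 0.046) and the phosphatase gene Ppm1d (log2 0.76, adjusted p = 0.074).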

How the results depend on the processing

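The count of phosphatase genes called did not change by over 1.5 times for LPS with control siRNA (6 in all 20 alternatives), SF3a1 siRNA without LPS (5 to 6) or with LPS (2 to 4). For LPS with SF3a1 siRNA it went from 3 to 5 with no filter on low counts and to 5 with the replicate block. Of all genes tested, 3.8% and 11.3% were called higher in these settings, against 6.6% before. For the interaction it went from 3 to 6 with no filter, 6 with the replicate block, 5 with DESeq2 and 5 with replicates 2 and 3 only. Of all genes tested, the shares called lower were 1.74, 5.18, 3.58 and 3.09% in that order, against 1.94% before. Leaving out 1 library gave 3 to 5 phosphatase genes. The calls added were Dusp1, Dusp4 and Dusp5, and beyond those given with the results the block changed no call of the 7 genes. Leaving out 1 library turned the sign of these uncalled values: Dusp10 after LPS with control siRNA (range -0.0050 to 0.48) and with SF3a1 siRNA (-0.25 to 0.037), Dusp1 with SF3a1 siRNA and LPS (-1.16 to 0.46), and the Dusp2 intron after LPS with control siRNA (-0.028 to 0.28). Over all genes the interaction called 520, against 930 with no filter, 1756 with the block, 921 with DESeq2 and 1012 with replicates 2 and 3. The fit with no filter tested 28638 genes, against 14983, and called 1.5% of them higher, against 1.54%. Leaving out 1 library gave 273 to 711, the lowest without replicate 3 of SF3a1 siRNA and no LPS. LPS with SF3a1 siRNA called 1598, against 3115 with the block and 1050 to 2005 without 1 library. Bins called in all genes went with the block from 123 to 285, from 961 to 2113 and from 756 to 1793, and the last to 335 with a stricter count filter. Without replicate 1 of the LPS-treated controls the first fell to 49 and the last to 101, and without replicate 3 of the untreated controls the second fell to 527. Of 140 calls over the 5 comparisons among the other listed and control genes, 41 were lost when some 1 library was left out and none changed sign. Among values given in the text these were Dusp3, Dusp8, Dusp28, Map2k4 and Mknk2 after LPS with control siRNA, Dusp8, Dusp22, Map2k2, Rps6ka1 and Rps6ka5 for SF3a1 siRNA without LPS, Spry1, Mapk3 and Ptpn5 for SF3a1 siRNA with LPS, Mapk14, Map3k4 and Rps6ka5 after LPS with SF3a1 siRNA, and the interactions of Egr1, Map3k6, Ppm1d and Il1b. Causes were not tested. Dusp10 rests on 13 to 62 reads per library and the Dusp2 intron without LPS on 5 to 21.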

Other observations

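Phosphatases of related classes moved in both directions. Of 9 atypical dual-specificity phosphatases tested, LPS with control siRNA lowered 3, Dusp14 (log2 -2.02), Dusp28 (log2 -0.90) and Dusp3 (log2 -0.68), and raised none, where 18.3% of all genes were called lower and 13.8% higher. Without LPS, SF3a1 siRNA raised 2 of the 9 and lowered 3, Dusp28 (log2 -1.56), Dusp18 (log2 -1.40) and Dusp22 (log2 -0.89). Of all genes, 13.7% were called higher and 20.1% lower there. With LPS, SF3a1 siRNA raised 3 of the 9 and lowered 2, with Dusp18 at -1.70 on the log2 scale. Of all genes, 18.4% were called higher and 20.4% lower with LPS. In that comparison Dusp14 (log2 1.91) and Dusp3 (log2 1.03), the gene of the ERK and JNK phosphatase VHR, were higher. Without replicate 1 of the LPS-treated controls Dusp14 was at log2 2.74 there and at -2.85 after LPS with control siRNA. None of the 9 had a called interaction.

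Of 7 other phosphatases that act on MAP kinases, LPS raised Ptpn5 (log2 1.30) and lowered Ppm1d (log2 -0.85) with control siRNA. Of all genes tested, 13.8% were called higher and 18.3% lower in that comparison. Without LPS, SF3a1 siRNA raised Ptpn7 (log2 0.66, adjusted p = 0.0031). With LPS, it raised 5 of the 7, among them Ppm1d (log2 0.77) and Ptpn7 (log2 0.60), a tyrosine phosphatase of ERK and p38 in blood cells, and lowered Ptpn5 (log2 -0.82). Of all genes, SF3a1 siRNA called 13.7% higher and 20.1% lower without LPS, and 18.4% higher and 20.4% lower with LPS. All of these calls are by edgeR's quasi-likelihood test at an adjusted p of 0.1.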
